A study of Rattus norvegicus with 8 samples.

Results

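The VEGF ligands and receptors studied here were 8 genes, matched by symbol among the 32623 genes of the deposited tables. The ligands were Vegfa, Vegfb, Vegfc and Pgf, the receptors were Flt1, Kdr and Flt4, and Nrp1 was the coreceptor. Spinal cord cells of 8-week-old female Wistar rats were captured with 10x Genomics droplets a week after surgery, and single RNA molecules were counted by their unique molecular identifiers (UMIs). Sham rats had the lamina removed and the cord exposed, and mild, moderate and severe rats then received a falling weight on the thoracic cord from 3 increasing heights. The tissue was digested with enzymes into single cells, so cell numbers also reflect what survived dissociation. The labels name no transgene and no drug, and each group had 2 libraries, called replicates 1 and 2. By the study's description each library came from a spinal cord of its own, though the labels do not tie libraries to animals. The p-values measure the spread between these libraries, apart from those of a dendritic fit named below. Alternative fits with no filter on low counts gave much lower adjusted p for several results at nearly the same fold change. These may overstate the certainty too. So may fits that left out 1 library, which leave at most 1 library in that group.

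The vascular endothelial growth factors are secreted proteins that act on receptor tyrosine kinases at the cell surface and are required for vessels to form and grow. VEGF-A, made in larger amounts under low oxygen, signals mainly through the receptor encoded by Kdr, whereas Flt1 encodes a receptor that binds VEGF-A tightly and limits its access to Kdr. VEGF-C acts on the Flt4 receptor of lymphatic and growing vessels, VEGF-B and placental growth factor (Pgf) bind Flt1, and neuropilin 1 (Nrp1) binds both VEGF-A and class 3 semaphorins.

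After filtering, 55450 of 68658 cells were kept, with 2333 to 10010 cells in a library and a median of 2741 to 10839.5 UMIs per cell. Together they held 63089 UMIs of the 8 genes. Cells were typed by marker lists that contained none of the 8 genes, so each name below stands for cells that resemble the type by those markers. No type was given to 13566 cells, and 4387 assigned cells lay close to the limit for a name. Phagocytes were split into microglia, macrophages and an intermediate class, which is a range on a marker score and not a separate type. Sham replicate 1 stood apart, since 4179 of its 9190 kept cells were neutrophils and the neutrophil list of 14 markers summed to 5925 counts per 1000000 UMIs (CPM) in its macrophages against 99.4 to 240.2 CPM in those of the other 7 libraries. Any pair of libraries shared 2 to 24 cell barcodes.

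The promoters of Vegfa, Flt1 and Kdr are shown because the results turn on these genes. Vegfa was the member whose level changed between injury groups, and Flt1 and Kdr had their highest mean levels in endothelial cells. Each sequence is the stretch of 250 bases before the start site on the plus strand of the RefSeq assembly GRCr8, which is newer than the Rnor_6.0 build named in the submitters' processing notes and was used for sequence only. Capitals mark the GC box GGGCGG or its reverse complement CCGCCC. The Vegfa stretch is chr9:22452604-22452853, that of Flt1 is chr12:12333180-12333429 and that of Kdr is chr14:32571813-32572062.
Vegfa: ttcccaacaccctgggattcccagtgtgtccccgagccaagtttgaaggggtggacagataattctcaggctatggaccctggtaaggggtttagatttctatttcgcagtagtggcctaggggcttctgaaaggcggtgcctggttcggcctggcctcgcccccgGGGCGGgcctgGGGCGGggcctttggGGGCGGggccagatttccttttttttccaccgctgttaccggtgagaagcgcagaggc
Flt1: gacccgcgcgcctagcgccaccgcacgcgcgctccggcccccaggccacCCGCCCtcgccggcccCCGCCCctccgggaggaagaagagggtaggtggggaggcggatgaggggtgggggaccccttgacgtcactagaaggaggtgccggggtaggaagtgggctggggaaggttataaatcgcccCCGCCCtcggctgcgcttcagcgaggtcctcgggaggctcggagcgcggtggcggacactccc
Kdr: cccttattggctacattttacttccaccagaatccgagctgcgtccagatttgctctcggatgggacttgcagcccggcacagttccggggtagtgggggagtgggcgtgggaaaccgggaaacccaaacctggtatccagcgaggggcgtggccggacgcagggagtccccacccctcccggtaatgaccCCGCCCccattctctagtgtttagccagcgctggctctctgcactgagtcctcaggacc

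The GC box, GGGCGG, searched on both strands, occurred 3 times in the Vegfa stretch, 3 times in that of Flt1 and 1 time in that of Kdr, and 30.5% of 33469 promoters of the same length held it at least 1 time. The hypoxia response core, searched as ACGTG or GCGTG, occurred 0 times before this Vegfa start site, 1 time before Flt1 and 2 times before Kdr, and 36.7% of promoters held it. The ETS core GGAA was found 4 times before Vegfa, 3 times before Flt1 and 4 times before Kdr, and 93.2% of promoters held it. All 8 members had a promoter entry, and Nrp1 had no GC box in this window. A second Vegfa start site, at 22460278, had 0 GC boxes, 0 hypoxia response cores and 2 ETS cores. Bases outside the window of 250 were not searched.

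The mean level of Vegfa was higher in neutrophils, dendritic cells, macrophages and oligodendrocyte precursors than in the endothelial cells that carry its receptors. Its mean level was 342 ± 295 CPM (SD, n = 7 libraries with at least 20 such cells) in neutrophils, 127 ± 82.6 CPM (n = 8) in dendritic cells, 66.4 ± 87.8 CPM (n = 8) in macrophages and 61.5 ± 47.8 CPM (n = 8) in oligodendrocyte precursors. The macrophage mean was 37.4 CPM without severe replicate 1, which is below that of the precursors. Fibroblasts held 33.9 ± 15.0 CPM (n = 7), endothelial cells 8.64 ± 12.6 CPM (n = 5) and microglia 4.59 ± 3.63 CPM (n = 8), and the 28 neurons of 1 library held 103 CPM. The neutrophil mean was above the dendritic mean in 7 of 7 libraries (exact sign-flip permutation test, p = 0.0156, adjusted p = 0.479). This p is the smallest that 7 libraries can give. Macrophages and oligodendrocyte precursors, next to each other in the order, differed by less than their spread (exact sign-flip permutation test, p = 0.563).

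Over all 8 genes, 92 pairs of neighbouring cell types could be tested, 4 had an unadjusted p under 0.05 and 0 passed after adjustment in the exact sign-flip permutation test. With at most 8 libraries in a pair no p can be under 0.0078, so a pair that failed the adjustment may still differ, and the order of neighbours is a description.

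**Figure D1:**
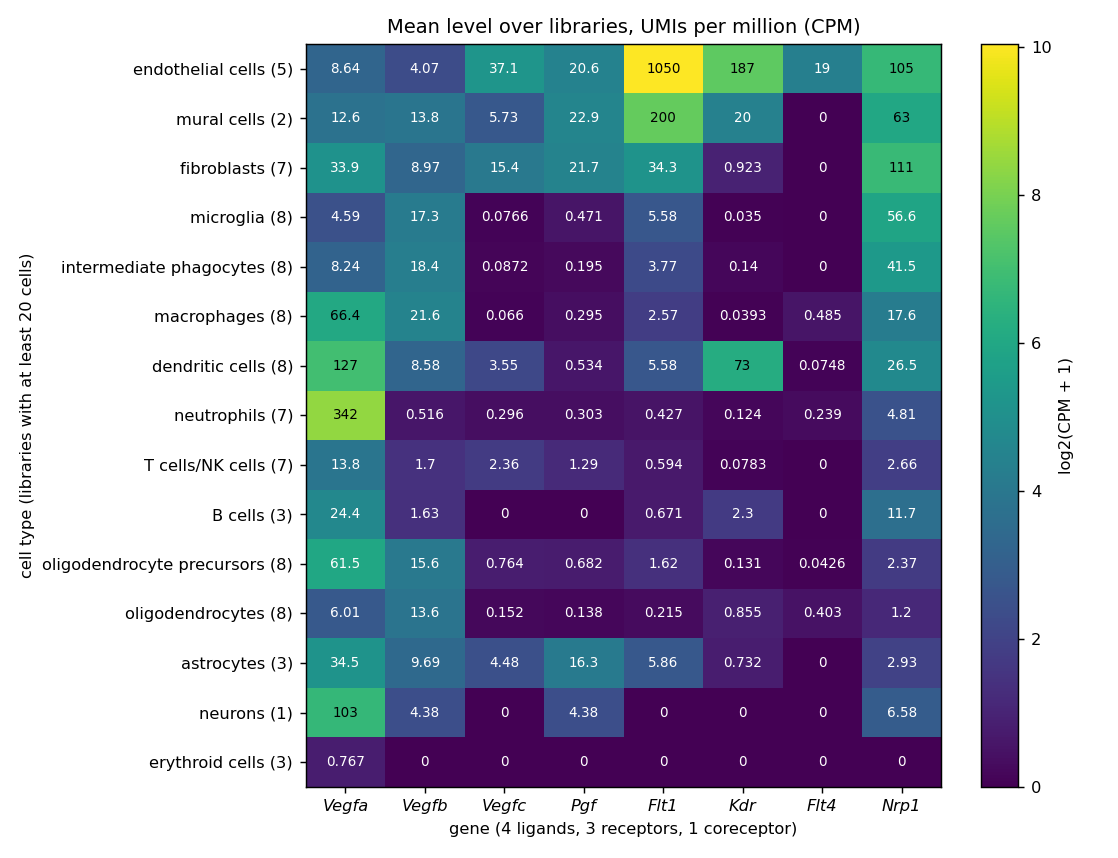
Mean level of each of the 8 genes over the libraries with at least 20 cells of a type, printed in CPM and coloured by log2(CPM + 1), with the number of libraries in brackets. Vegfa had its highest mean in neutrophils (342 CPM), Flt1 and Kdr in endothelial cells (1050 and 187 CPM), and Kdr also reached 73.0 CPM in dendritic cells.

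Of all 31393 Vegfa UMIs, 36.5% were in macrophages, 8.65% in neutrophils, 5.64% in dendritic cells and 0.121% in endothelial cells. In the same order these types held 37.4%, 3.38%, 2.13% and 0.789% of the UMIs of all genes. Oligodendrocyte precursors held 4.97% of Vegfa UMIs and 5.84% of all UMIs, so over all libraries together they and macrophages were not above their share. These shares pool libraries that differed. Macrophages held from 5.94% of a library's Vegfa UMIs in sham replicate 1 to 55.5% in severe replicate 2. Neutrophils held from 0% in sham replicate 2 to 45.5% in sham replicate 1. Macrophages were above their share of all UMIs in both severe libraries (43.1% against 35.1% and 55.5% against 38.4%) and below it in every other library. Precursors were above theirs in both sham libraries (4.39% against 0.925% and 22.6% against 2.41%), mild replicate 2 and moderate replicate 1. They were below it in the rest. A further 38.3% of all Vegfa UMIs were in cells left without a type. Of these, 50.7% were in cells whose leading marker list was that of phagocytes. After each cell was thinned to 1000 UMIs, 13.3% of 5745 neutrophils had a Vegfa UMI (95% exact binomial interval 12.4 to 14.2), against 18.9% without thinning, and 2359 shallower neutrophils were left out. By library the thinned share ran from 5.47% of 3915 neutrophils in sham replicate 1 to 48.1% of 621 in severe replicate 1. It was 30% without sham replicate 1, whose neutrophils also differed in S100a8 and S100a9, as given below. The thinned share was 10.1% of 1458 dendritic cells, 5.04% of 13223 macrophages and 4.57% of 2471 oligodendrocyte precursors. None of 704 erythroid cells, a type that should lack the gene, had a Vegfa UMI after thinning, which allows a share of up to 0.426%. At full depth, 7 of 715 erythroid cells (0.979%) had one, and their level reached 2.30 CPM in severe replicate 2, against means of 4.59 CPM in microglia and 8.64 CPM in endothelial cells. Median depths were 8379 UMIs in erythroid cells and 1659 in neutrophils, and intervals and limits cover counting error only.

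Vegfa rose with severe injury in macrophages. These phagocytes are named by markers that do not show where the cells came from. They held 32.0 and 4.05 CPM in the sham libraries, 24.1 and 14.4 CPM in the mild, 32.9 and 47.4 CPM in the moderate, and 269.6 and 106.7 CPM in the severe libraries. Both severe libraries were above the other 6, and the sham and mild libraries overlapped. Against sham the log2 fold change was 3.93 (SE 0.84, adjusted p = 0.0338 by edgeR's quasi-likelihood test), in a comparison where 7.91% of 12497 genes were called. Against mild it was 3.66 (SE 0.80, adjusted p = 0.0484 by edgeR), where 3.81% of genes were called. The mild and moderate values against sham were 0.27 and 1.30 and did not pass.

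The severe macrophage call was lost in 6 of 8 fits that left out 1 library, with log2 fold changes of 3.29 (adjusted p = 0.121 by edgeR) without severe replicate 1 and 4.49 (adjusted p = 0.0615) without severe replicate 2, and values of 3.93 (adjusted p from 0.0621 to 0.0695) without any 1 mild or moderate library. Without sham replicate 1 the value was 5.90. The call against mild was also lost in 6 of 8, with values from 2.95 without severe replicate 1 to 4.16 without severe replicate 2. In macrophages, the dendritic list of 14 markers summed to 1267 to 2288 CPM in sham, 506 to 1092 CPM in mild, 589.8 to 636 CPM in moderate and 1031 to 1465 CPM in severe libraries, and its part in the Vegfa values was not tested.

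All phagocytes together gave Vegfa levels of 18.5 and 2.96 CPM in sham, 16.8 and 10.7 CPM in mild, 25.0 and 40.7 CPM in moderate and 230.4 and 74.5 CPM in severe libraries. The severe libraries again lay above the other 6. Vegfa rose by a log2 fold change of 4.47 against sham (SE 0.84, adjusted p = 0.0245 by edgeR), with 7.92% of genes called, and the value was 3.53 (adjusted p = 0.102) without severe replicate 1, 4.43 (adjusted p = 0.0526) without mild replicate 1 and 4.43 (adjusted p = 0.0525) without mild replicate 2.

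Within libraries, Vegfa was higher in macrophages than in microglia, the resident phagocytes of the cord. Microglial Vegfa was 4.72 and 1.25 CPM in sham, 1.84 and 0.840 CPM in mild, 7.67 and 3.44 CPM in moderate and 11.5 and 5.50 CPM in severe libraries. The macrophage value was above the microglial value in 8 of 8 libraries, by 2.98 ± 1.07 (SD) in log2(CPM + 1) (exact sign-flip permutation test, p = 0.0078, adjusted over the 8 genes to 0.0312). Severe against sham, the microglial log2 fold change was 2.12 (SE 0.73, adjusted p = 0.173 by edgeR) and did not pass, though it did without sham replicate 1 (2.67, adjusted p = 0.0470) and with no filter on low counts (2.15, adjusted p = 0.0392), and the macrophage change exceeded the microglial one by 2.30 (SE 0.60, adjusted p = 0.0551 by edgeR), which did not pass either and did in 5 of 8 fits without 1 library, from 2.25 to 2.90, with no filter on low counts (2.27, adjusted p = 0.00075) and without doublet removal (2.64, adjusted p = 0.00545).

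**Figure D2:**
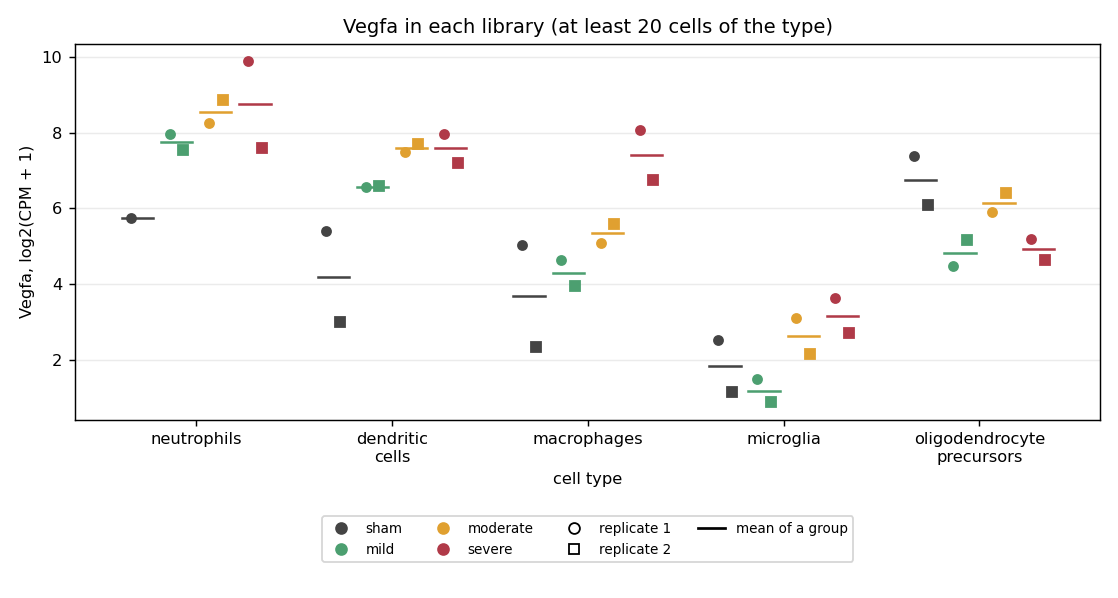
Vegfa level in log2(CPM + 1) for every library with at least 20 cells of a type, coloured by injury group, with circles for replicate 1, squares for replicate 2 and a line at the mean of a group. Both severe libraries lie above all others in macrophages, every injured library lies above both sham libraries in dendritic cells, and mild and severe libraries lie below both sham libraries in oligodendrocyte precursors.

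Dendritic cells, which take up antigen and present it to T cells, held 41.5 and 6.98 CPM of Vegfa in the sham libraries, from 2 and 1 UMIs. The mild libraries held 93.2 and 95.04 CPM, the moderate 177 and 207 CPM, and the severe 248 and 147 CPM. Every injured library was above both sham libraries, and the moderate and severe libraries overlapped. Vegfa rose by a log2 fold change of 3.99 in severe against sham (SE 0.71, adjusted p = 0.0168 by edgeR), with 1.18% of 8120 genes called, and by 3.46 for the mean of the 3 injured groups (SE 0.69, adjusted p = 0.0309 by edgeR), with 0.665% called. The moderate value was 3.65 (adjusted p = 0.0601) and the mild value 2.73 (adjusted p = 0.131), and neither passed.

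In the dendritic gate, 1538 of 1770 Vegfa UMIs were in cells where none of Siglech, Ccr9, Clec9a, Xcr1 or Batf3 counted as a marker. A marker counted only above a set level, so these cells may still hold a few of its UMIs. Such cells were 24 of 24 in sham replicate 1, 217 of 338 and 65 of 110 in mild, 173 of 258 and 115 of 198 in moderate and 80 of 224 and 154 of 298 in severe libraries, so the groups differed in subset makeup, and its part in the change was not tested.

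The sham side of the dendritic comparison was thin. It rested on 24 and 21 cells with 2 and 1 Vegfa UMIs, so the size of the fold changes was poorly determined. In sham replicate 1 the defining genes Flt3, Clec9a and Siglech were at 0 UMIs. There the neutrophil list summed to 7382 CPM, against 41.9 CPM in the other sham library and 47.3 to 227 CPM in the injured libraries. Without sham replicate 1 the severe value was 5.16 (adjusted p = 0.00882 by edgeR) and without sham replicate 2 it was 2.97 (adjusted p = 0.0378). The injured mean was 4.63 (adjusted p = 0.0180) without sham replicate 1 and 2.43 (adjusted p = 0.0823) without sham replicate 2, where it did not pass.

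Neutrophils held 53.0 CPM of Vegfa in sham replicate 1, 249.9 and 185 CPM in mild, 303 and 462 CPM in moderate and 948 and 194 CPM in severe libraries. The severe pair spanned the whole moderate range, and a single sham library left no test against sham. The sham neutrophils held 79178 CPM of S100a8 and 212755 CPM of S100a9. In the injured libraries these genes were at 6058 to 17687 CPM and 20813 to 58915 CPM. Csf3r was at 471 CPM in sham and 166 to 465 CPM in the injured libraries. So large a share of S100a8 and S100a9 lowers the CPM of other genes, and its part in the sham Vegfa value was not tested. Severe replicate 1 had the highest Vegfa level of all libraries in neutrophils, dendritic cells, macrophages, microglia and endothelial cells alike. Severe against mild the log2 fold change was 1.84 (SE 0.63, adjusted p = 0.0968 by edgeR, with 6.21% of genes called) and did not pass. It was 0.16 without severe replicate 1 and 2.60 (adjusted p = 0.0189) without severe replicate 2. It also passed in DESeq2 (1.86, adjusted p = 0.0353) and with no filter on low counts (1.78, adjusted p = 0.0126). T cells/NK cells gave 3.77 in the same comparison (SE 1.07, adjusted p = 0.0576 by edgeR) and did not pass. They held 1.92 and 0 CPM in mild and 22.8 and 18.2 CPM in severe libraries. The mild values were 1 and 0 UMIs, and the 0 allows up to 25.7 CPM, above both severe values. A rise over mild replicate 2 was therefore not resolved.

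In oligodendrocyte precursors, the dividing glia that give rise to myelin-forming cells, Vegfa was lower after injury. The sham libraries held 167 and 67.1 CPM, the mild 21.2 and 35.1 CPM, the moderate 58.8 and 83.6 CPM, and the severe 35.4 and 24.1 CPM. Mild and severe libraries were below both sham libraries, whereas the moderate pair overlapped with sham. Vegfa fell by 1.95 on the log2 scale in mild against sham (SE 0.38, adjusted p = 0.0184 by edgeR), with 5.47% of 11453 genes called. It fell by 1.63 in severe against sham (SE 0.40, adjusted p = 0.0239), with 10.2% called, and by 1.42 for the mean of the injured groups (SE 0.31, adjusted p = 0.0170), with 7.93% called. The moderate value of -0.67 (adjusted p = 0.292) did not pass, with 6.47% called.

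All 3 of these calls were lost without sham replicate 1, at -1.24 for mild (adjusted p = 0.112 by edgeR), -0.94 for severe (adjusted p = 0.217) and -0.72 for the injured mean (adjusted p = 0.328). The mild call was also lost without mild replicate 1 (-1.61, adjusted p = 0.137), and without severe replicate 2 the severe value was -1.37 (adjusted p = 0.231) and the injured mean -1.31 (adjusted p = 0.0565). The precursors of sham replicate 1, 58 cells, carried 5627 CPM of the 9 fibroblast markers and 4942 CPM of the 14 neutrophil markers. The other sham library had 637 and 401 CPM of these lists, and the mild libraries 451.5 to 853 and 163 to 488 CPM. The moderate had 399.5 to 426 and 164 to 197 CPM, and the severe 46.2 to 141 and 74.7 to 122 CPM. The part of such RNA in the Vegfa values was not tested. Of the precursors' own markers, Olig2 was at 626 and 563 CPM in sham and 159 to 326 CPM in the injured libraries. Pdgfra was at 482 and 175 CPM in sham and 44.7 to 211 CPM in the injured libraries. The other markers of the list are not given. Whether the gated cells differed between groups, and the part of this in the Vegfa values, was not tested.

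Whether the change of Vegfa differed between cell types was tested directly, with the library as a block, after seeing the data. In severe against sham the change in macrophages exceeded that in oligodendrocyte precursors by 5.58 (SE 0.51, adjusted p = 4.7e-05 by edgeR), with 6.78% of 13078 genes called, and for the injured mean by 3.47 (SE 0.44, adjusted p = 0.00074), with 4.14% called. The change in dendritic cells exceeded that in precursors by 5.85 (SE 0.66, adjusted p = 1.7e-15), with 3.61% of 10982 genes called, and for the injured mean by 5.14 (SE 0.62, adjusted p = 2.3e-13), with 3.5% called. The p-values of this dendritic fit come from a spread that was treated as almost exactly known. With 2 libraries a group, and 24 and 21 dendritic cells with 2 and 1 Vegfa UMIs in sham, they overstate the certainty. Without sham replicate 1 the severe differences were 6.65 and 6.39, and without sham replicate 2 they were 4.91 and 5.10.

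**Figure D3:**
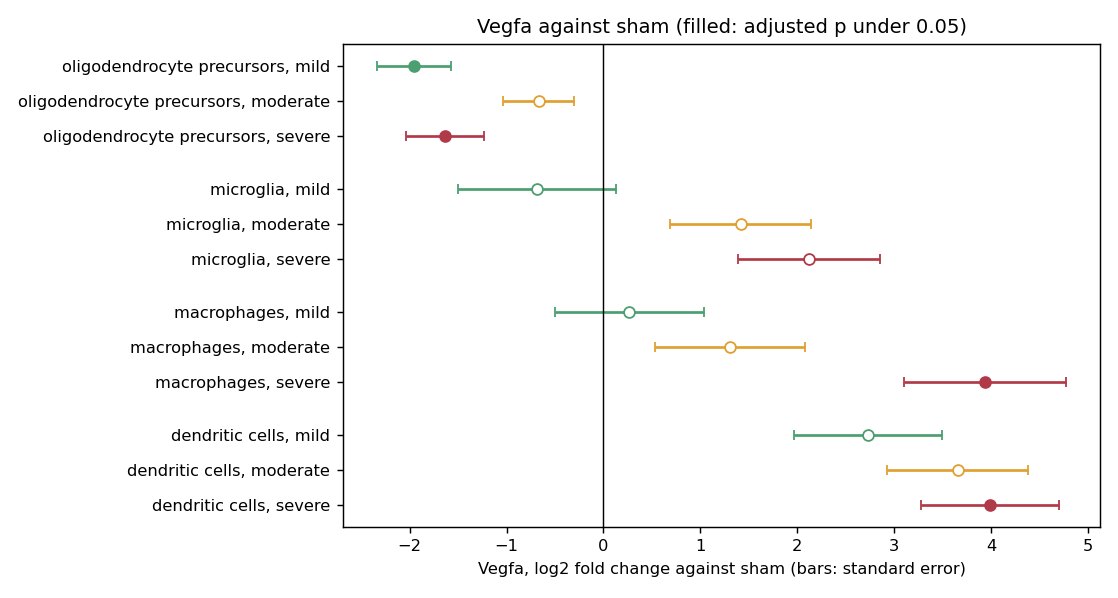
Log2 fold change of Vegfa against sham with its standard error in 4 cell types, filled where the adjusted p of edgeR was under 0.05. The values ran from -1.95 in mild oligodendrocyte precursors to 3.99 in severe dendritic cells, and 4 of the 12 points passed.

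Vegfb, a ligand of Flt1, was spread more evenly over phagocytes and the oligodendrocyte lineage. Macrophages held 21.6 ± 4.93 CPM (SD, n = 8), from 14.5 to 31.7 CPM, intermediate phagocytes 18.4 CPM, microglia 17.3 CPM, oligodendrocyte precursors 15.6 CPM and oligodendrocytes 13.6 CPM on average. Macrophage Vegfb was 21.4 and 31.7 CPM in sham, 14.5 and 21.6 CPM in mild, 21.6 and 19.99 CPM in moderate and 18.1 and 23.6 CPM in severe libraries, and the groups overlapped. Neutrophils, with 0.516 CPM, were at 0 in 4 of 7 libraries. None of 31 tests of Vegfb between injury groups passed in edgeR, and 0 had an unadjusted p under 0.05.

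Vegfc, the ligand of Flt4, was highest in endothelial cells at 37.1 ± 14.1 CPM (SD, n = 5), followed by fibroblasts at 15.4 ± 8.43 CPM (n = 7), and dendritic cells held 3.55 CPM. The 5 endothelial libraries held 31.2 and 61.6 CPM in sham, 26.5 CPM in mild replicate 2, and 30.7 and 35.2 CPM in severe, so sham and severe overlapped. Severe against sham the log2 fold change was -0.04 (SE 0.44, adjusted p = 0.981 by edgeR). In fibroblasts Vegfc was 7.75 CPM in sham replicate 1, 32.2 and 9.33 CPM in mild, 12.5 and 20 CPM in moderate and 15.1 and 11.2 CPM in severe libraries. Every injured library was above the single sham library, and the injured groups overlapped. Of its 862 UMIs, 49.5% were in fibroblasts and 15.7% in endothelial cells.

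Pgf was found in stromal and vascular cells. Fibroblasts held 21.7 ± 11.1 CPM (SD, n = 7) and 56.5% of the 1060 Pgf UMIs, endothelial cells held 20.6 ± 24.1 CPM (n = 5), and mural cells held 45.8 and 0 CPM in the 2 sham libraries. Fibroblast Pgf was 8.34 CPM in sham replicate 1, 28.3 and 10.1 CPM in mild, 29.05 and 39.1 CPM in moderate and 18.4 and 18.5 CPM in severe libraries. Every injured fibroblast library was above the single sham library, which left no test against sham. In endothelial cells the sham libraries had 6.64 and 7.25 CPM, mild replicate 2 had 0 CPM, and the severe libraries had 30.7 and 58.4 CPM. Few cells held these UMIs, 3 of 168 and 1 of 50 in sham and 7 of 69 and 9 of 95 in severe. The mild 0 allows up to 13.2 CPM, above both sham values. Both severe libraries were above both sham libraries, with a log2 fold change of 3.02 (SE 0.56, adjusted p = 0.0562 by edgeR) that did not pass. It passed without the filter on low counts (3.02, adjusted p = 1.8e-05), without doublet removal (2.96, adjusted p = 0.0276), with a mitochondrial limit of 20% (3.03, adjusted p = 0.0269) and with a stricter cell gate (3.10, adjusted p = 0.0437). The first of these p-values came at an unchanged fold change and may overstate the certainty.

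Flt1 was concentrated in endothelial cells. Its level there was 2146 and 1157 CPM in the sham libraries, 826 CPM in mild replicate 2 and 611 and 512 CPM in the severe libraries, and both severe libraries were below both sham libraries. The log2 fold change of -1.27 (SE 0.41, adjusted p = 0.209 by edgeR) did not pass, and the value was -1.65 without sham replicate 2. The endothelial cells, 0.745% of all kept cells, held 73.1% of the 6780 Flt1 UMIs. After thinning, 59.4% of 397 endothelial cells had a Flt1 UMI (95% exact binomial interval 54.4 to 64.3), against 93.2% of them unthinned, 2.42% of fibroblasts and 0 of 704 erythroid cells, at median depths of 8642, 15125 and 8379 UMIs.

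Other cells had far less Flt1. Fibroblasts held 34.3 ± 32.6 CPM (SD, n = 7), from 5.19 CPM in severe replicate 2 to 95.6 CPM in moderate replicate 2. The fibroblast values were 20.3 CPM in sham replicate 1, 12.6 and 56.8 CPM in mild, 39.0 and 95.6 CPM in moderate and 10.6 and 5.19 CPM in severe libraries. Both severe libraries were below the other 5. Mural cells, the pericytes and muscle cells of the vessel wall, held 401 CPM in sham replicate 1 and 0 CPM in sham replicate 2, and the first also held 636 CPM of the endothelial gene Cldn5 against 0 CPM in the second. Phagocytes held 15.6 CPM in sham replicate 1 and 0.837 to 2.28 CPM in the other 7 libraries, and their value of -2.57 in severe against sham (SE 0.87, adjusted p = 0.103 by edgeR) did not pass. Dendritic cells held 0 CPM in both sham libraries, 2.65 and 0 CPM in mild, 5.88 and 15.8 CPM in moderate and 9.29 and 11.1 CPM in severe libraries. The moderate and severe libraries were above both mild libraries, and severe against mild the log2 fold change of 2.55 (SE 0.78, adjusted p = 0.118 by edgeR, with 1.82% of genes called) did not pass. The 0 values allow up to 62.2 and 20.9 CPM in sham replicates 1 and 2 and 5.09 CPM in mild replicate 2. The sham libraries could therefore not be placed below the injured ones.

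Kdr was found in endothelial cells and, apart from them, in dendritic cells. The endothelial libraries held 228 and 178 CPM in sham, 168 CPM in mild replicate 2, and 209 and 155 CPM in severe, a mean of 187 ± 30.2 CPM (SD, n = 5) with overlapping groups. Severe against sham the log2 fold change was 0.12 (SE 0.34, adjusted p = 0.904 by edgeR), and it was -0.18 when scaled by library size alone. Mural cells held 40.1 CPM in sham replicate 1, the library whose mural cells carried Cldn5, and 0 CPM in sham replicate 2. Of 413 endothelial cells, 260 had UMIs of both Flt1 and Kdr, 125 of Flt1 only, 6 of Kdr only and 22 of neither.

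Dendritic cells held 45.1% of the 1890 Kdr UMIs and endothelial cells 43.4%, beside 2.13% and 0.789% of the UMIs of all genes. These pooled shares depend on which cells were caught. The mild libraries held 1 and 20 endothelial cells and the moderate libraries 5 and 5. Sham replicate 1 had 343 endothelial and 0 dendritic Kdr UMIs, and severe replicate 2 had 180 and 275. The dendritic level was 0 and 126 CPM in sham, 36.7 and 67.9 CPM in mild, 56.6 and 103 CPM in moderate and 112 and 82.3 CPM in severe libraries, a mean of 73.0 ± 41.8 CPM (SD, n = 8) that was 131 CPM with the stricter cell gate. The sham pair spanned all other libraries, and its 0 came from the 24 cells without Flt3. The endothelial genes Cldn5 and Cdh5 were at 0 to 0.9 and 0 to 8.8 CPM in dendritic cells. In endothelial cells they were at 2502 to 6459 CPM and 203 to 439 CPM. Other markers of the endothelial list are not given here, and Esam of that list was among the genes most like Kdr (r = 0.81). The endothelial level of Kdr was above the dendritic one in 5 of 5 libraries, where the exact sign-flip permutation test cannot go below p = 0.0625. After thinning, 17.1% of endothelial and 7.13% of 1458 dendritic cells had a Kdr UMI, against 0 of 13223 macrophages, which allows up to 0.0227%, and 0 of 3124 microglia, which allows up to 0.0960%.

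Within the dendritic gate, Kdr followed the markers of subsets. The split was made after the Kdr values had been seen and is given as a description with no test. The first set, Siglech and Ccr9, are genes of plasmacytoid dendritic cells that make type I interferon. Cells where a gene of this set counted as a marker by the typing rule, and none of the second set did, numbered 404. They held 233 CPM of Kdr, with a Kdr UMI in 55.7% of them. Cells with Clec9a, Xcr1 or Batf3 only, the second set, genes of the cross-presenting class, numbered 197 and held 103 CPM. Their libraries differed, with 22.5 CPM in mild replicate 1, 284 CPM in moderate replicate 2 and 88.5 and 113 CPM in severe. In moderate replicate 2 this was above the 248 CPM of the first set. The 30 cells with markers of both sets held 291 CPM. The 840 cells with none of these held 5.18 CPM, with a Kdr UMI in 1.79%.

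The same subsets differed in Nrp1 and Vegfa. Nrp1 was at 93.2 CPM in cells with Siglech or Ccr9, 1.84 CPM in cells with Clec9a, Xcr1 or Batf3 and 16.8 CPM in the rest. Vegfa was 36.7, 66.2 and 241 CPM in these 3 subsets, in the reverse order of the Kdr levels over all libraries together. In the cells with none of the markers, Vegfa was 41.5 CPM in sham replicate 1, 133 and 144 CPM in mild, 229 and 295 CPM in moderate and 542 and 235 CPM in severe libraries.

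**Figure D4:**
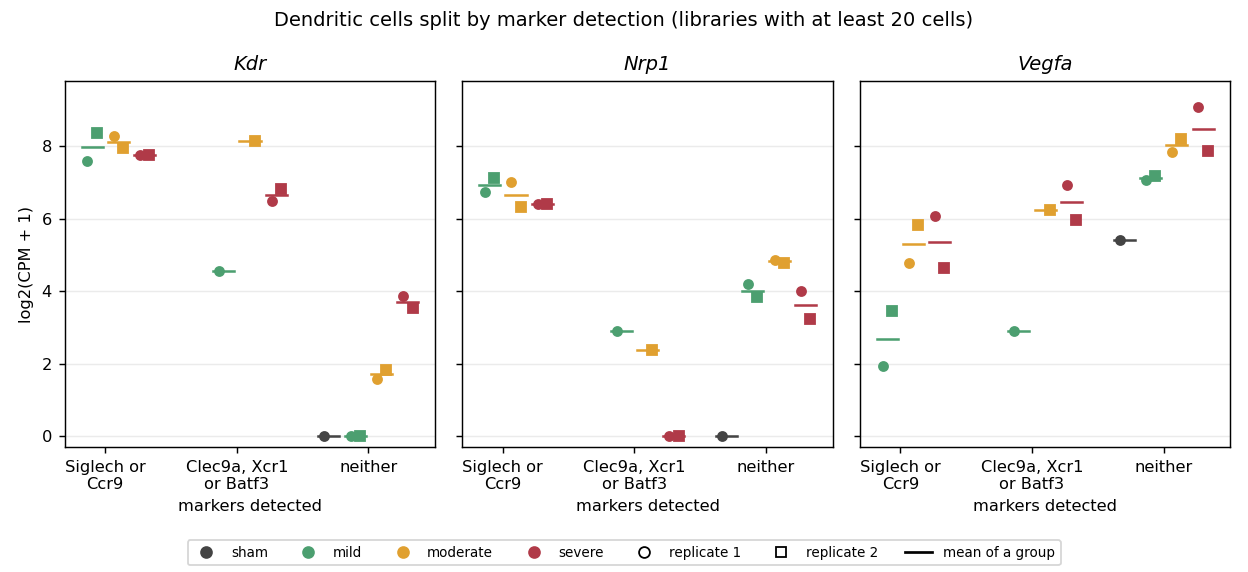
Levels of Kdr, Nrp1 and Vegfa in log2(CPM + 1) in dendritic cells split by detected markers, for every library with at least 20 cells of a subset, with colours for the groups, circles and squares for replicates 1 and 2, and lines at the mean of a group. Kdr was at 193 to 329 CPM in the 6 libraries with enough cells carrying Siglech or Ccr9 and at 0 to 13.7 CPM in cells with none of the markers, where Vegfa was highest.

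Flt4, the receptor of VEGF-C, was the scarcest member, with 260 UMIs. Endothelial cells held 21.9 and 10.9 CPM in sham, 44.1 CPM in mild replicate 2 and 10.2 and 7.73 CPM in severe libraries, and the highest value came from 20 cells. Severe against sham the log2 fold change was -0.77 (SE 0.53, adjusted p = 0.524 by edgeR). Lymphatic endothelial genes were nearly absent from these cells, with 4 UMIs of Prox1, 26 of Lyve1, 13 of Pdpn, 5 of Mmrn1 and 0 of Ccl21. Macrophages held 37.3% of Flt4 UMIs, about their 37.4% share of the UMIs of all genes, at a mean level of 0.485 CPM. Of their 97 Flt4 UMIs, 52 came from moderate replicate 2 (1.65 CPM), against 0 to 0.982 CPM in the other libraries. Microglia had 0 UMIs in all 8 libraries, and macrophages were above them in 7 of 8, by 0.50 ± 0.47 (SD) in log2(CPM + 1). This passed the exact sign-flip permutation test (p = 0.0156, adjusted p = 0.0417), and its adjusted p reached 0.0625 under other settings. With microglia at 0 throughout, no difference could go the other way. The p therefore only reflects that 7 of 8 libraries had at least 1 macrophage UMI. The microglial 0 counts allow 0.317 to 2.83 CPM in a library. Most macrophage levels lay below what the microglial 0 of their library allows, so in most libraries neither the direction nor the size of the difference was resolved.

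Nrp1 was shared between stromal cells, vessels and phagocytes. Its level was 111 ± 61.6 CPM (SD, n = 7) in fibroblasts, 105 ± 26.0 CPM (n = 5) in endothelial cells, 63.0 ± 8.12 CPM (n = 2) in mural cells and 56.6 ± 15.3 CPM (n = 8) in microglia. Intermediate phagocytes held 41.5 ± 10.4 CPM and macrophages 17.6 ± 5.23 CPM (n = 8 each), and oligodendrocyte precursors 2.37 CPM. The fibroblast values were 111 CPM in sham replicate 1, 78.7 and 109 CPM in mild, 156 and 221 CPM in moderate and 68.5 and 35.1 CPM in severe libraries. Both moderate libraries were the highest and both severe libraries the lowest. Microglia held 36.8 and 42.2 CPM in sham, 69.2 and 67.8 CPM in mild, 72.7 and 50.7 CPM in moderate and 72.1 and 41.7 CPM in severe libraries. Macrophages were below microglia in 8 of 8 libraries, by -1.64 ± 0.48 (SD) in log2(CPM + 1) (exact sign-flip permutation test, p = 0.0078, adjusted p = 0.0312).

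Between injury groups Nrp1 passed in 0 of 33 tests in edgeR, 4 of them with an unadjusted p under 0.05. How many of all genes were under that limit is given below. Macrophage Nrp1 was 14.9 and 21.6 CPM in sham, 24.9 and 20.8 CPM in mild, 19.9 and 17.3 CPM in moderate and 12.3 and 9.18 CPM in severe libraries. The sham and severe microglial libraries overlapped, and both severe macrophage libraries were below both sham libraries. Severe against sham the log2 fold changes were 0.73 (SE 0.36, adjusted p = 0.295) in microglia and -0.36 (SE 0.29, adjusted p = 0.446) in macrophages. The difference between these changes, tested with the library as a block after seeing the data, was -1.08 (SE 0.25, adjusted p = 0.0326 by edgeR), with 3.66% of 11318 genes called, and this call was lost without sham replicate 2 or severe replicate 1 (adjusted p = 0.234 and 0.112). For the injured mean it was -0.67 (adjusted p = 0.127), with 2.23% called. In endothelial cells Nrp1 was 87.6 and 141 CPM in sham, 88.3 CPM in mild replicate 2 and 123 and 83.3 CPM in severe libraries, with a log2 fold change of 0.18 (SE 0.37, adjusted p = 0.862) that was -0.12 when scaled by library size alone.

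**Figure D5:**
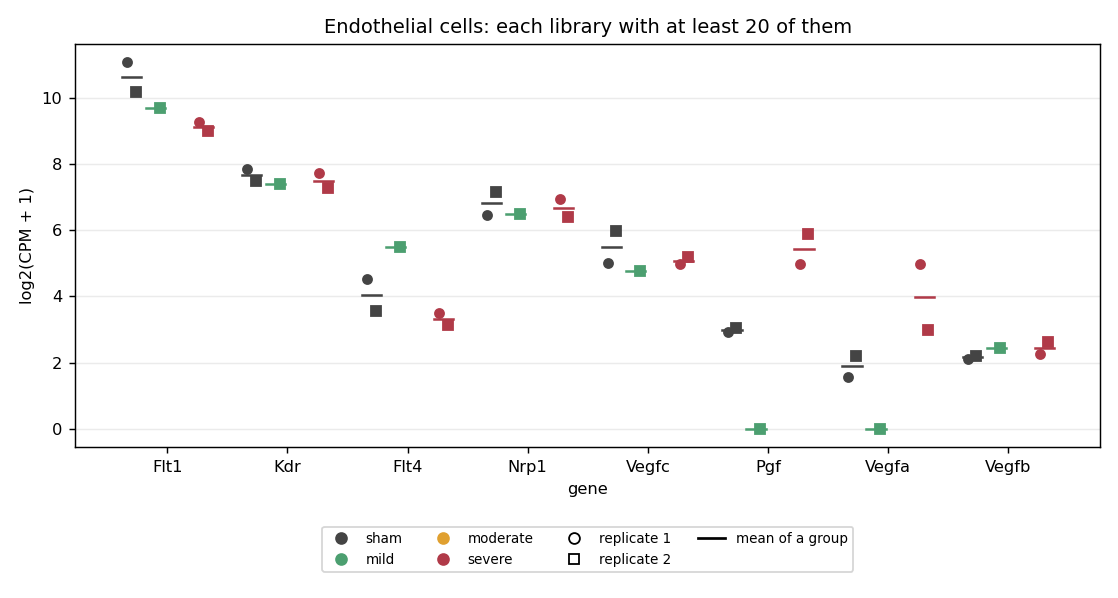
Level of each member in log2(CPM + 1) in endothelial cells for the 5 libraries with at least 20 of them, with colours for the groups, circles and squares for replicates 1 and 2 and lines at the mean of a group. No moderate library had enough cells, Flt1 was lower (611 and 512 CPM) and Pgf higher (30.7 and 58.4 CPM) in both severe libraries than in both sham libraries, and Kdr and Nrp1 overlapped.

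In endothelial cells as a whole, 0 of 7 members tested passed severe against sham in edgeR, and 0.439% of 7973 genes were called. An unadjusted p under 0.05 was found for 3 members (Vegfa, Pgf and Flt1) and for 1153 of the 7973 genes. DESeq2 also called 0 of the 7 members. Vegfa was at 1.99 and 3.63 CPM in sham and 30.7 and 6.87 CPM in severe libraries, with a value of 3.14 (SE 0.96, adjusted p = 0.2003). The value was 3.33 without sham replicate 2. With no filter on low counts it passed (3.12, adjusted p = 0.0046 by edgeR), and that p may overstate the certainty. The comparison had 168 and 50 cells in sham and 69 and 95 in severe libraries, and the neutrophil list summed to 6264 and 79.8 CPM in sham, 2759 CPM in mild replicate 2 and 192 and 172 CPM in severe. The part of this RNA in the member values was not tested.

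Over all cell types, 151 tests of a member between injury groups were possible in 34 comparisons, 41 had an unadjusted p under 0.05 and 8 passed, all of Vegfa, which had 34 of the tests. Many genes had an unadjusted p under 0.05 in edgeR. The share was lowest in dendritic cells, moderate against sham (1016 of 8120 genes), and highest in phagocytes, injured mean against sham (3915 of 12985). The other members had 31 tests for Vegfb, 2 for Vegfc, 12 for Pgf, 22 for Flt1, 6 for Kdr, 11 for Flt4 and 33 for Nrp1. Beyond the shares of all genes given above, the share called was 5.76%, 1.77% and 9.85% in phagocytes for mild, moderate and the injured mean against sham, and 2.32% for severe against mild. In the same order it was 4.46%, 0.936% and 6.62% in macrophages (without the last), and 1.17%, 0.573%, 1.81% and 1.8% in microglia, with 1.42% for severe against sham. In oligodendrocytes it was 3.8%, 2.53%, 1.23% and 2.29% in that order, with 0.559% for severe against sham. In dendritic cells it was 0.135% for mild and 0.135% for moderate against sham, and for severe against mild it was 5.34% in oligodendrocyte precursors, 1.29% in fibroblasts and 3.36% in T cells/NK cells. The members passing in these further comparisons numbered 0, and Vegfb, Vegfc, Pgf, Flt1, Kdr, Flt4 and Nrp1 passed in no test between injury groups.

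Genes that sense or respond to low oxygen were counted in severe against sham beside the share of all genes called, which was 7.92% in phagocytes, 7.91% in macrophages and 10.2% in oligodendrocyte precursors. Of 16 hypoxia-responsive genes tested, 2 rose in phagocytes, Adm, a vessel-relaxing peptide (2.75, SE 0.54, adjusted p = 0.0274 by edgeR), and Pfkfb3, an activator of glycolysis (2.57, SE 0.56, adjusted p = 0.0361), with a median of 0.27 against -0.11 over all genes. In macrophages 2 of 16 rose, Pfkfb3 (2.27) and Ndrg1 (1.93), with a median of 0.28 against -0.09. In oligodendrocyte precursors the glycolytic genes Ldha (1.69) and Pgk1 (1.25) rose and Adm fell by 1.49 on the log2 scale, with a median of 0.01 against -0.02. There 2 of 8 oxygen-sensing genes fell, by 1.72 for Epas1 and 1.06 for Hif1a, both subunits of hypoxia-inducible factors, and in the other cell types 0 of those tested passed.

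The remaining lists were tested in the same comparison in edgeR. Of 17 signalling genes inside the cell, Akt1, a kinase downstream of Kdr, rose in oligodendrocyte precursors (1.04, adjusted p = 0.0361), where 10.2% of all genes were called. Angiopoietins and their receptors, and the further members Vegfd and Nrp2, gave 0 calls. Of the semaphorins that bind neuropilins, Sema3e fell by 1.78 in oligodendrocyte precursors (adjusted p = 0.0299). Of 9 genes of sprouting tip cells tested in endothelial cells, Kcne3, a potassium channel subunit, rose by 4.70 (SE 0.56, adjusted p = 0.0101), from 1.99 and 3.63 CPM in sham to 48.7 and 54.9 CPM in severe libraries, with a list median of 1.42 against -0.06 and 0.439% of all genes called. Of the other genes of the list, Apln and Angpt2, chosen here after their values were seen, did not separate the groups. Apln was at 236 and 94.3 CPM in sham and 156 and 106 CPM in severe libraries. Angpt2 was at 146 and 29.0 CPM in sham and 37.1 and 48.9 CPM in severe. Plvap, also chosen after its values were seen, was higher in severe, at 0 and 58.0 CPM in sham and 344 and 102 CPM in severe libraries. It was not among the calls in endothelial cells. Cxcr4 of that list, a chemokine receptor also carried by leukocytes, rose in phagocytes (5.35, adjusted p = 0.00339), and Plvap rose in dendritic cells (3.33, adjusted p = 0.0311).

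The genes whose pattern was most like a member's were taken over 86 profiles of 15 cell types, and Pearson's r is a description, since profiles share libraries and cell types. Flt1 was most like the endothelial cadherin Cdh5 (r = 0.90) and Emcn (r = 0.86). Kdr was most like Paqr5 (r = 0.85) and the endothelial adhesion molecule Esam (r = 0.81). Flt4 was most like the endothelial transcription factor Sox17 (r = 0.90), Nrp1 like Eng (r = 0.88), Vegfc like Lsr (r = 0.87), Pgf like Srpx (r = 0.81) and Vegfb like Slc1a3 (r = 0.77). Vegfa had the lowest leading value, with the lactate transporter Slc16a3 (r = 0.70) and the retinoic acid receptor Rara (r = 0.67). Cdh5, Emcn, Esam and Sox17 were among the markers that gated endothelial cells, and Slc1a3 among those of astrocytes. A gene concentrated in the gated endothelial cells therefore resembles their markers by construction.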

How the data were processed

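Raw UMI counts per gene and cell were deposited by the authors for 8 libraries of the 10x 3′ kit, with no normalization. The submitters' processing notes name Cell Ranger, Seurat and the Rnor_6.0 build. Cells with over 10% mitochondrial UMIs were removed, then the 7.7% of a library's cells with the highest Scrublet score (scanpy 1.11.5), then cells beyond 2 SD of the mean UMIs or genes of their library. A marker counted where its UMIs had a Poisson tail under 0.01 against 30% of the library's mean share. A cell took the type with the largest share of its list, with at least 3 markers and a margin of 10 percentage points.

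UMIs were summed per library and type (at least 20 cells) and tested with edgeR 4.0.16 (R 4.3.3) by its quasi-likelihood test, with TMM normalization, filterByExpr, all 4 groups in 1 fit and Benjamini-Hochberg adjustment over all genes at 0.05. Levels in CPM carry no TMM factors. Cell types were compared within libraries by two-sided exact sign-flip permutation tests of log2(CPM + 1) with a pseudocount of 1 CPM (scipy 1.17.1). Differences of a change between cell types were fitted in edgeR with the library as a block, and these, the macrophage-microglia comparison and the dendritic subsets were added after seeing the data. Alternatives were DESeq2 1.42.0, scaling by library size, no count filter, only the groups compared, the replicate number as a block, leaving out libraries, no doublet removal, a mitochondrial limit of 20%, a stricter gate, at least 50 cells, a pseudocount of 10 CPM and thinning to 500 UMIs.

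All 8 members are named in each comparison, and of each of 7 gene lists the leading rises and falls among calls. The members and lists were chosen with earlier results of these data known. Counts were also simulated from the phagocytes of all 4 groups (12721 genes), with changes placed in the severe libraries. In severe against sham, 35.4% of 4-fold and 1.03% of 2-fold changes were called (99 and 97 genes). In counts from endothelial cells (7442 genes) these were 47.9% and 4.08% (94 and 98 genes). Genes without a placed change were called too, 6 in phagocytes and 3 in endothelial cells. All simulated libraries shared the same mean profile otherwise, without the other cell makeup of sham replicate 1.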

Additional observations from a re-analysis of the deposited data

Results flagged for a closer look

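The change of Vegfa with injury differed between cell types in a test of the difference itself, chosen after seeing the data. In severe against sham, the log2 fold change in macrophages exceeded that in oligodendrocyte precursors by 5.58 (SE 0.51, adjusted p = 4.7e-05 by edgeR with the library as a block), in a comparison where 6.78% of 13078 genes were called. For the mean of the injured groups this difference was 3.47 (SE 0.44, adjusted p = 0.00074), with 4.14% called. Dendritic cells exceeded oligodendrocyte precursors by 5.85 in severe against sham (SE 0.66, adjusted p = 1.7e-15, with 3.61% called) and by 5.14 for the injured mean (SE 0.62, adjusted p = 2.3e-13, with 3.5% called). The p-values of the dendritic fit treat the spread as almost exactly known and overstate the certainty. Its sham libraries held 2 and 1 dendritic Vegfa UMIs. These 4 differences passed without each library in turn, and the first ranged from 4.91 to 6.65. The stricter gate and the limit of 50 cells left no fit for dendritic cells against precursors.

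The change of Nrp1 in severe against sham was lower in macrophages than in microglia by -1.08 (SE 0.25, adjusted p = 0.0326 by edgeR), with 3.66% of 11318 genes called. It did not pass without sham replicate 2 (adjusted p = 0.234), without severe replicate 1 (-0.93, adjusted p = 0.112) or with the stricter gate (-1.19, adjusted p = 0.0516).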

How the results depend on the processing

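With 2 libraries a group, and 1 sham library of other cell makeup and depth, calls moved with single libraries. The replicate numbers did not pair the libraries (correlations of same-numbered libraries from -0.23 to 0.19), and with the replicate number as a block the severe Vegfa changes were 4.08 in macrophages, 4.52 in phagocytes and 3.93 in dendritic cells, with no call of a member changed in any comparison. In severe against sham, scaling by library size alone moved the median of all genes from -0.09 to -0.54 in macrophages, from 0.24 to -0.19 in dendritic cells and from -0.06 to -0.36 in endothelial cells, and turned endothelial Kdr to -0.18 and Nrp1 to -0.12. Endothelial Vegfc was -0.04 and turned to 0.0588 without doublet removal. Endothelial Pgf passed at 3.02 with no count filter, 2.96 without doublet removal, 3.03 at the 20% mitochondrial limit and 3.10 with the stricter gate. Vegfa in macrophages, severe against mild, lost its call at 3.64 without doublet removal and 3.66 at the 20% limit. With only the groups compared, the calls of Vegfa were lost in macrophages (3.85) and phagocytes (4.36), severe against sham, and in oligodendrocyte precursors, mild against sham (-1.998). The mean Kdr level in dendritic cells was 131 CPM with the stricter gate. The cause of these moves was not tested.

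Counts of genes called moved more. With DESeq2 they were 371 (dendritic, injured mean, 54 in edgeR), 401 (dendritic, severe, 96), 75 (endothelial, severe, 35), 1276 (macrophages, severe against mild, 476), 2080 (macrophages, severe, 989) and 2147 (phagocytes, severe, 1029). With library size alone they were, for the same except severe dendritic cells, 83, 18, 1479, 2090 and 2201. With no count filter they were 358, 399, 437, 1760, 2390 and 2561, and 1577, 1276 and 1812 in precursors for the injured mean, mild and severe (908, 627 and 1164 in edgeR). With the replicate block they were 150 (dendritic, severe), 242 and 601 (macrophages, severe against mild and sham), 476 (phagocytes) and 300 (precursors, mild). With only the groups compared they were 51, 1339, 37, 97 and 4 for the same, and 405 for precursors, severe. Endothelial counts were 95 without doublet removal, 107 at the 20% limit and 62 with the stricter gate.

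Leaving out 1 library gave, for severe against sham in endothelial cells, -1.65 to -0.77 for Flt1, -0.0443 to 0.30 for Kdr, -0.19 to 0.51 for Nrp1, 2.35 to 3.44 for Pgf and -0.60 to 0.38 for Vegfc, and -0.63 to 0.11 for Nrp1 in macrophages. For Vegfa it gave 2.43 to 4.63 (dendritic, injured mean), 2.97 to 5.16 (dendritic, severe), 2.95 to 4.16 (macrophages, severe against mild), 3.12 to 5.90 (macrophages, severe), 3.53 to 6.01 (phagocytes, severe), and in precursors -1.86 to -0.72 (injured mean), -2.38 to -1.24 (mild) and -2.09 to -0.94 (severe). Counts of genes called ranged from 45 to 388 and 95 to 439 (dendritic, injured mean and severe), 0 to 691 (endothelial), 35 to 1456 and 153 to 1649 (macrophages, severe against mild and sham), 142 to 1945 (phagocytes), and 178 to 1467, 57 to 1257 and 34 to 2128 (precursors, injured mean, mild and severe). Vegfc and Flt4 rested on few UMIs (862 and 260), and small changes of them were not detectable at this depth.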
